A study of Mus musculus with 6 samples.

Results

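*Scx*, *Mkx* and *Tnmd*, 3 of the 32286 genes in the count tables, were taken by symbol and followed through all 6 libraries of the digits-in-a-dish (DID) series. The cultures were grown from dissociated distal forelimb mesenchyme of E11.5 embryos of the outbred mouse strain CD-1, which reassembles in vitro in medium with fetal bovine serum. The 3 groups are cultures harvested on Day 2, Day 7 and Day 10, each with 2 independent cultures (replicates A and B) profiled as separate 10x Genomics 3' libraries. No group carried a mutation or received an added agent, and the dissected tissue of the embryos was pooled before seeding, so the libraries do not stand for single animals. The question put to the 3 genes is how their levels change as the cultures mature and whether they are found in the same cells.

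Scleraxis (*Scx*) is a basic helix-loop-helix transcription factor that marks tendon and ligament progenitors in the limb and is needed for the force-transmitting tendons to form. Mohawk (*Mkx*) is a homeobox transcription factor of the TALE class, related to the Iroquois proteins, that promotes the collagen production of developing tendons and is also expressed in other connective tissues of the embryo. Tenomodulin (*Tnmd*) is a type II transmembrane glycoprotein of tendons and ligaments whose expression lies downstream of *Scx* in tendon cells, and chondromodulin (*Cnmd*) is its closest relative, found in cartilage.

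In GRCm38, *Scx* (ENSMUSG00000034161) lies on the plus strand at chr15:76457452-76459458, within the span of *Bop1* on the other strand, with 0 exonic bases in common. *Mkx* (ENSMUSG00000061013) lies on the minus strand at chr18:6934518-7004780 and shares 201 exonic bases with a non-coding gene model on its own strand that has no row in the count tables. *Tnmd* (ENSMUSG00000031250) lies on the plus strand at chrX:133850980-133865577, where no other gene of the annotation overlaps it. UMIs from the shared stretch of *Mkx* cannot be told apart from those of the overlapping model.

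The 6 libraries hold 91215 barcodes, of which 72099 passed the study's limits on UMIs, genes, mitochondrial and ribosomal reads. They gave 9448 to 16486 cells and 178022112 to 260245417 UMIs per library. Day 2 replicate B stood apart, with a median of 3871 UMIs per cell against 18587 in Day 2 replicate A and 8062 to 24197 in the other 4 libraries, so differences from Day 2 are given with and without it for the members and their lists. Any pair of libraries shared 24 to 67 cell barcodes, doublets were not removed, and replicate libraries differed by more than counting noise on every day. With 2 libraries per day, p-values of the day comparisons measure the spread between these cultures only. Where kinds of cells are compared within libraries, edgeR draws the spread of a gene largely from all genes. The very small p-values there do not measure that gene's own spread between the cultures. In sums over a whole culture, fewer cells with a gene and less RNA of it per cell cannot be told apart.

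Gene expression changed broadly between the days. UMIs were summed per library and compared with edgeR, and of the 18987 genes tested 70.3% were called between Day 2 and Day 7, 52.2% between Day 7 and Day 10, and 77.3% between Day 2 and Day 10, with median log2 fold changes of 0.01, -0.02 and 0.00. By direction, 6772 genes were higher and 6570 lower from Day 2 to Day 7, 5003 higher and 4910 lower from Day 7 to Day 10, and 7414 higher and 7256 lower from Day 2 to Day 10. The counts of the gene lists below are read against these. *Scx*, *Mkx* and *Tnmd* were each called in all 3 comparisons, which against this background says little by itself, and the size and direction of each difference are given below by gene.

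*Scx* was highest on Day 2, lowest on Day 7 and intermediate on Day 10. Summed over cells and scaled with TMM factors, its level was 124 and 112 CPM (UMIs of the gene per 1000000 UMIs of the library) in Day 2 replicates A and B, 40.8 and 39.5 CPM on Day 7, and 67.0 and 64.3 CPM on Day 10. The 3 days did not overlap, and the gap between replicates was small beside the gap between days. *Scx* fell by 1.55 on the log2 scale from Day 2 to Day 7 (SE 0.0626, adjusted p = 1.04e-07, edgeR quasi-likelihood test, 2 libraries per day), and rose by 0.71 from Day 7 to Day 10 (SE 0.0617, adjusted p = 5.99e-05). Day 10 remained below Day 2, with a log2 fold change of -0.84 (SE 0.0613, adjusted p = 2.26e-06). Without Day 2 replicate B the differences from Day 2 were -1.63 on Day 7 and -0.92 on Day 10.

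*Mkx* fell in smaller steps. Its TMM-scaled level was 10.6 and 11.99 CPM on Day 2, 9.43 and 9.27 CPM on Day 7, and 7.68 and 8.07 CPM on Day 10, again with no overlap between days. The log2 fold change was -0.27 from Day 2 to Day 7 (SE 0.070, adjusted p = 0.00703, edgeR), -0.25 from Day 7 to Day 10 (SE 0.0706, adjusted p = 0.0177), and -0.52 from Day 2 to Day 10 (SE 0.070, adjusted p = 0.000131). Without Day 2 replicate B the differences from Day 2 were -0.19 on Day 7 and -0.43 on Day 10, both still called. The middle step was the least stable, since it no longer passed the test without Day 7 replicate A (-0.24), Day 7 replicate B (-0.26) or Day 10 replicate A (-0.21). Weighing cells equally by thinning each to 3000 UMIs left -0.078 for the first step (adjusted p = 0.492, edgeR), and cells of at least 12000 UMIs thinned to that depth left -0.072 for the middle step (adjusted p = 0.567), so the fall of *Mkx* rests mainly on the comparison of Day 2 with Day 10.

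*Tnmd* rose. Its TMM-scaled level was 11.6 and 16.0 CPM on Day 2, 16.3 and 19.1 CPM on Day 7, and 28.7 and 26.0 CPM on Day 10. Day 10 lay clearly above the other days, whereas Day 2 replicate B and Day 7 replicate A were nearly level. The rise from Day 7 to Day 10 was 0.63 on the log2 scale (SE 0.137, adjusted p = 0.00518, edgeR), and that from Day 2 to Day 10 was 0.99 (SE 0.138, adjusted p = 0.000164). The rise from Day 2 to Day 7 was 0.36 (SE 0.139, adjusted p = 0.0426). It turned on single libraries, at 0.15 and no longer called without Day 2 replicate A, 0.25 and no longer called without Day 7 replicate B, and 0.61 without Day 2 replicate B. It also missed the threshold with DESeq2's size factors in edgeR (0.34, adjusted p = 0.0509). Without Day 2 replicate B the rise from Day 2 to Day 10 was 1.24.

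**Figure D1:**
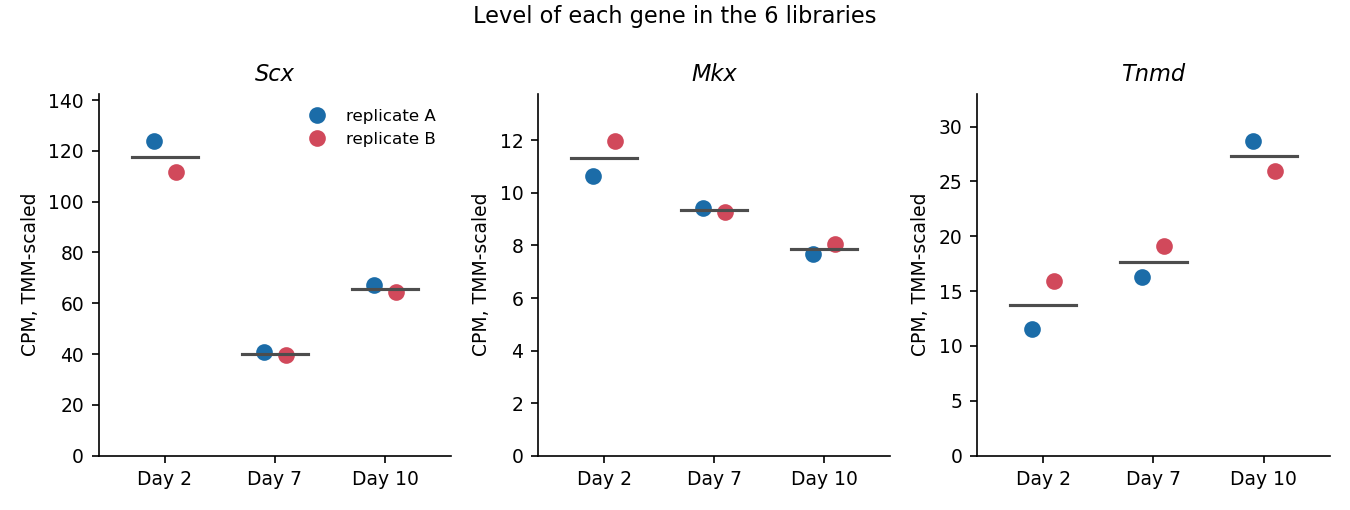
Level of *Scx*, *Mkx* and *Tnmd* in each library (points, TMM-scaled CPM, vertical axes from 0 and separate for each gene) by day of culture, with a bar at the mean of the 2 libraries of a day. *Scx* falls from 124 and 112 CPM on Day 2 to 40.8 and 39.5 CPM on Day 7 and partly recovers, *Mkx* declines slightly, and *Tnmd* is highest on Day 10.

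The list of tendon transcription factors and partners mostly shared the fall after Day 2. It also holds inhibitors, such as *Id1* and *Id3*, and is called factors and partners below. Of 18 measured, 16 fell and 2 rose from Day 2 to Day 7, with a median log2 fold change of -0.59, and from Day 7 to Day 10, 8 rose and 0 fell (median 0.14). Over all 18987 genes tested, 6570 fell and 6772 rose in the first step, and 5003 rose and 4910 fell in the second. The E protein gene *Tcf3*, whose product dimerises with *Scx*, fell by 0.80 and then rose by 0.47. *Egr1*, a zinc finger factor that raises tendon collagen genes, went from 416 and 426 CPM on Day 2 to 249 and 257 CPM on Day 7, and its further difference of -0.13 by Day 10 did not pass the test. *Eya1*, a transcriptional co-activator, went the other way, with 2.78 and 3.52 CPM on Day 2, 11.9 and 10.98 CPM on Day 7 and 16.6 and 15.8 CPM on Day 10.

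Signals that act on tendon progenitors moved in both directions. Over the list of TGF-beta, FGF and BMP genes, 16 of 25 fell and 6 rose from Day 2 to Day 7 (median -0.52), and 9 rose and 9 fell from Day 7 to Day 10 (median -0.10). Several targets and feedback inhibitors of FGF signalling fell and then rose. *Dusp6*, a phosphatase for ERK, fell by 1.73 and rose by 0.88, *Spry4* fell by 1.61 and rose by 0.90, and the ETS factor gene *Etv4* fell by 1.32 and rose by 0.51, while *Etv5* fell by 0.28 and its later difference of -0.15 did not pass the test. The ligand *Tgfb1* rose in both steps, by 1.05 and 0.62, while *Tgfb2* fell in both, by 0.45 and 0.28. *Gdf5*, a BMP-family ligand of the joint interzone, ended at 2.31 and 2.53 CPM on Day 10 from 20.2 and 17.5 CPM on Day 2.

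The matrix genes that tendon cells share with other connective tissue rose, as *Tnmd* did. From Day 2 to Day 7 all 24 genes of the tendon matrix list rose, with a median of 2.38, and from Day 7 to Day 10, 19 rose and 3 fell (median 0.59). *Fmod*, a small proteoglycan that binds collagen fibrils, rose from 5.65 and 5.86 CPM on Day 2 to 51.9 and 53.6 CPM on Day 7 and 86.5 and 76.8 CPM on Day 10. *Thbs4*, a thrombospondin of tendon and muscle matrix, rose from 0.922 and 0.796 CPM to 11.6 and 8.94 CPM and then 22.2 and 17.6 CPM. *Kera*, a corneal and tendon proteoglycan gene, was the exception over the whole course, being lower on Day 10 than on Day 2 with a log2 fold change of -2.13, at or below 0.490 CPM in each library.

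Close relatives of the members moved in both directions, with 3 of 7 higher and 3 lower from Day 2 to Day 7 (median 0.09) and 4 higher and 3 lower from Day 7 to Day 10 (median 0.32). Over all 18987 genes tested, 6772 were higher and 6570 lower in the first step, and 5003 and 4910 in the second. Counts of so few genes are not read as a trait of the relatives. *Cnmd*, the cartilage counterpart of *Tnmd*, rose from 14.1 and 18.4 CPM on Day 2 to 521 and 488 CPM on Day 7 and then fell to 213 and 196 CPM. *Tcf15*, the gene of paraxis, which is the closest relative of the *Scx* protein and acts in somites, was at 5.68 and 4.49 CPM on Day 2 and at or below 0.291 CPM later. Among the Iroquois genes, *Irx3* rose at both steps, from 13.5 and 13.6 CPM to 20.01 and 18.1 CPM and then 46.0 and 52.1 CPM. *Irx6* and *Fgf4* were too low to be tested. Without Day 2 replicate B, the counts from Day 2 to Day 7 were 2 higher and 16 lower for the transcription factors and partners, 5 and 15 for the signals, 24 and 0 for the matrix genes and 3 and 3 for the relatives.

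At the level of cells, a UMI of *Scx* was found in 63.4% of the cells in replicate A and 39.5% in replicate B of Day 2, 19.7% and 19.3% on Day 7, and 40.7% and 36.9% on Day 10. For *Mkx* the shares were 17.2% and 9.97%, 10.6% and 10.3%, and 13.0% and 13.1%, and for *Tnmd* 7.81% and 8.26%, 6.34% and 6.77%, and 14.1% and 11.95%. These shares move with the depth of a library. After thinning every cell to 3000 UMIs, which keeps 8802 of the 9448 cells of Day 2 replicate A and 9653 of the 16486 of replicate B, the shares of *Scx* on Day 2 were 28.6% (95% exact binomial interval 27.6 to 29.5, counting error only) and 26.9% (26.1 to 27.8), against 7.46% and 6.73% on Day 7 and 13.0% and 12.4% on Day 10.

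Thinned shares of *Mkx* were 4.19% and 3.86% on Day 2, 3.11% and 3.18% on Day 7 and 2.61% and 2.62% on Day 10, in the order of its CPM and opposite to the unthinned shares of Day 7 and Day 10. Most of these cells held a single UMI of *Mkx*, with 1.06 to 1.10 UMIs per positive cell, so no change is read from the shares themselves. Thinned shares of *Tnmd* were 2.29% and 5.02% on Day 2, a gap between replicates as wide as any between days, against 3.23% and 3.13% on Day 7 and 5.34% and 4.36% on Day 10.

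The 3 genes also differed in how unevenly they were spread over cells. The cell with the most UMIs of *Scx* held 36 to 64 of them in each library, that of *Tnmd* 26 to 73, and that of *Mkx* 8 to 11. The ratio of variance to mean of the UMIs per cell, which is 1 for counting noise in cells of equal depth, was 6.18 to 8.38 for *Scx*, 6.39 to 13.6 for *Tnmd* and 1.51 to 1.99 for *Mkx*. At least 2 UMIs were held by 35.4% of the *Tnmd*-positive cells in Day 2 replicate B and 53.5% to 61.9% of those in the other libraries, by 53.1% to 73.0% of the *Scx*-positive cells and by 20.2% to 32.6% of the *Mkx*-positive cells. These values are from unthinned cells, whose depths differ. In cells thinned to 3000 UMIs the ratio of variance to mean was 1.32 to 1.49 for *Scx*, 1.41 to 2.18 for *Tnmd* and 1.09 to 1.17 for *Mkx*. The share with at least 2 UMIs was then 25.2% and 17.7% for *Tnmd* against 31.6% and 27.1% for *Scx* on Day 2, and 25.1% to 34.2% against 16.1% to 20.1% on Day 7 and Day 10, with 5.90% to 8.33% for *Mkx*. The order of *Scx* and *Tnmd* in this share thus differed between Day 2 and the later days.

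Depth within a library was not neutral for any of the 3. On Day 7 and Day 10, *Scx* was at 13.0 to 31.1 CPM in cells of fewer than 3000 UMIs and at 41.1 to 73.4 CPM in cells of 25000 to 50000 UMIs. *Mkx* ran the other way, from 9.62 to 17.4 CPM in the shallowest of these cells to 4.104 to 5.48 CPM in cells of more than 50000 UMIs. In Day 2 replicate B, *Tnmd* stood at 25.9 CPM in cells of fewer than 12000 UMIs and 16.1 CPM in deeper cells, while Day 2 replicate A had 3.29 and 13.9 CPM. The difference in *Tnmd* between the 2 Day 2 replicates was thus in the shallow cells, and the part of depth in it was not tested.

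**Figure D2:**
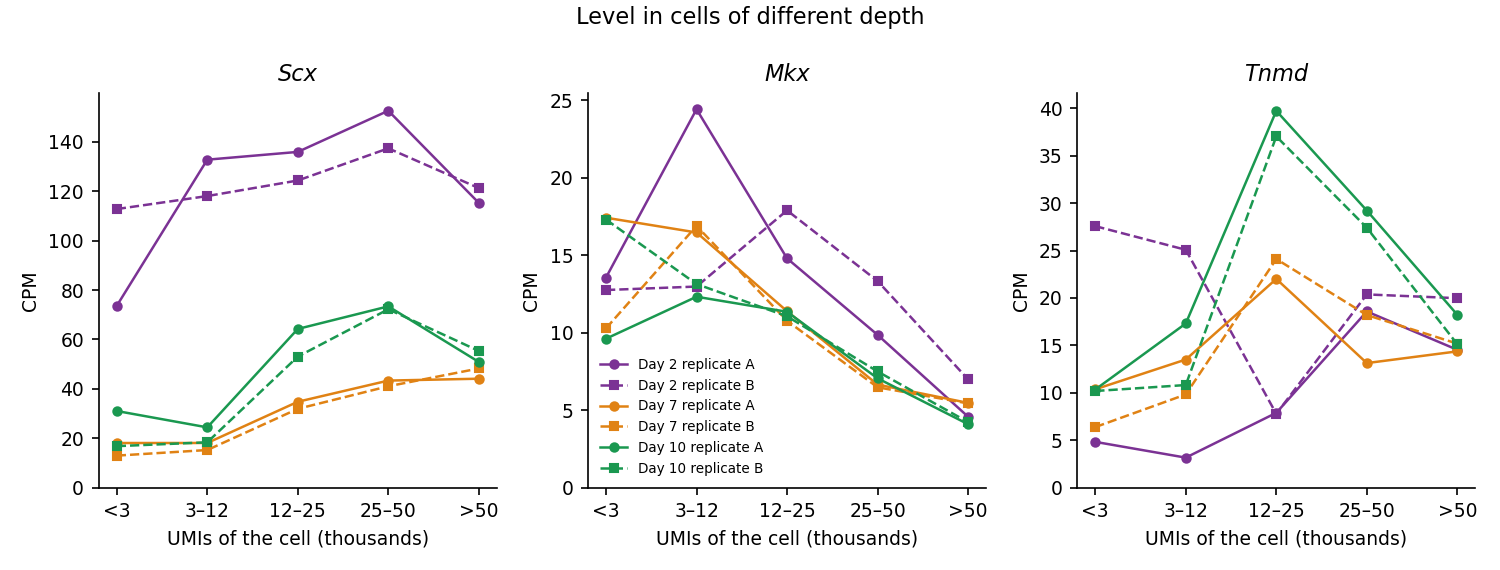
CPM of each member in cells grouped by their UMIs (edges at 3000, 12000, 25000 and 50000), with one line per library. On Day 7 and Day 10 *Scx* is higher in cells of 25000 to 50000 UMIs than in those under 3000, *Mkx* is lowest in the deepest cells of each library, and the 2 Day 2 lines of *Tnmd* part below 12000 UMIs.

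*Scx* and *Tnmd* were found together in cells more often than the product of their shares gives, in every library, when cells were thinned to 3000 UMIs. Both were held by 90 cells in replicate A and 215 in replicate B of Day 2, against 57.7 and 131 from the product of the shares. On Day 7 the counts were 38 and 38 against 22.5 and 19.9, and on Day 10 they were 98 and 77 against 66.3 and 47.8. The odds ratio was 2.05 and 2.26 on Day 2, 1.84 and 2.12 on Day 7, and 1.64 and 1.82 on Day 10, with a median of 1.94. The 215 cells of Day 2 replicate B had a median of 7571 UMIs against 13169 in its cells with none of the members. In the shallow cells of that library *Scx* could not be told from its level in immune-like cells, given below. The other 5 libraries ran from 1.64 to 2.12. Leaving out the 10% of cells with the most UMIs in each library gave 1.67 to 2.31, and the part of doublets in the pairing was not tested.

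The pairing was loose in both directions. Of the cells with *Tnmd*, 44.6% and 44.3% held a UMI of *Scx* on Day 2, 12.6% and 12.9% on Day 7, and 19.2% and 19.95% on Day 10, where cells without *Tnmd* gave 28.2% and 26.0%, 7.29% and 6.53%, and 12.6% and 12.04%. Of the cells with *Scx*, 3.58% to 8.27% held *Tnmd*, against 1.78% to 4.96% of cells without *Scx*. At 3000 UMIs a cell that expresses a gene can lack a UMI of it, so absence of a gene from a cell is not shown by these counts.

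*Mkx* was not tied to the other members in the same way. The odds ratio of *Scx* and *Mkx* was 1.11 and 1.14 on Day 2, 1.28 and 0.936 on Day 7, and 1.66 and 1.45 on Day 10, from 19 to 113 cells with both. That of *Mkx* and *Tnmd* was 0.817 and 0.729 on Day 2, 1.19 and 0.734 on Day 7, and 1.30 and 1.65 on Day 10, from 7 to 17 cells with both. Replicates on Day 7 fell on both sides of 1 for each of these pairs. The *Scx* and *Mkx* ratio also moved with the thinning, with a median over libraries of 0.798 at 1000 UMIs, 1.21 at 3000, 1.48 at 12000 and 2.68 in unthinned cells, while the median for *Scx* and *Tnmd* was 1.95, 1.94, 2.15 and 3.12. At 1000 UMIs single libraries ran from 0.502 to 1.31 for *Scx* and *Mkx* and from 0.483 to 3.01 for *Scx* and *Tnmd*, the lowest being Day 7 replicate A with 2 cells holding both genes of each pair.

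**Figure D3:**
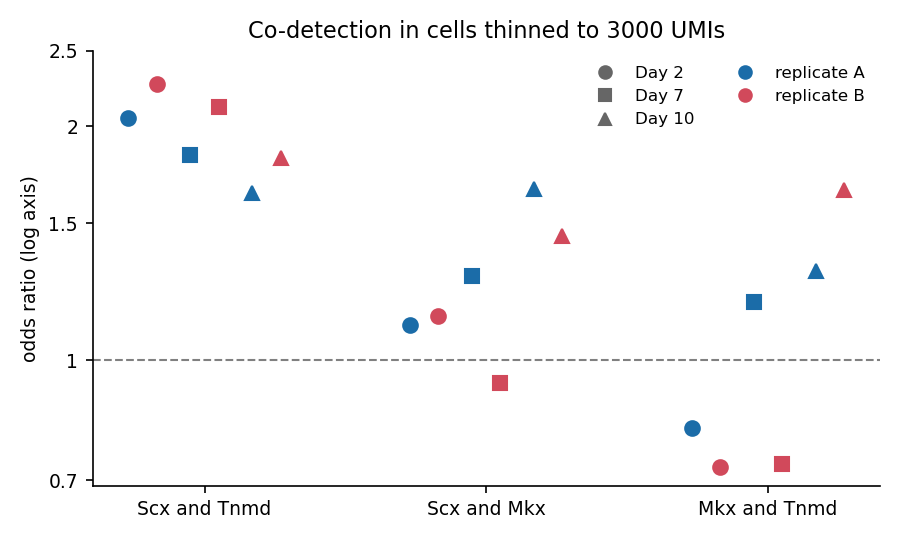
Odds ratio of finding both genes of a pair in a cell thinned to 3000 UMIs (log axis, dashed line at 1), one point per library, with shapes for the days and colours for the replicates. All 6 libraries lie between 1.64 and 2.26 for *Scx* and *Tnmd*, while the pairs with *Mkx* reach below 1 in at least 1 library.

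Cells with all 3 members were rare, with 3 and 7 thinned cells on Day 2, 2 and 0 on Day 7 and 7 and 7 on Day 10. Cells with *Scx* alone were the largest of the kinds with a single member, numbering 2315 and 2282 on Day 2, 633 and 578 on Day 7 and 1101 and 988 on Day 10. *Mkx* alone was found in 252 and 256, 254 and 274, and 191 and 184 cells. *Tnmd* alone was found in 108 and 263 cells on Day 2, 254 and 250 on Day 7 and 403 and 300 on Day 10. The kinds differed in depth before thinning. Cells with *Mkx* alone had a median of 9810 to 16591 UMIs on Day 7 and Day 10, against 24019 to 32406 in cells with *Scx* alone, with 2.94% to 4.99% of mitochondrial UMIs against 2.87% to 3.73%. In Day 2 replicate B, cells with *Tnmd* alone had a median of 5617 UMIs and cells with none of the 3 had 13169, while in replicate A these were 30276 and 19200.

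To ask what else distinguishes the cells that hold a member, UMIs were summed per library over thinned cells with the member and over those without it, and compared within libraries with edgeR. *Tnmd* was higher in cells with *Scx*, at 16.4 against 7.64 CPM in Day 2 replicate A, 32.6 against 16.1 in replicate B, 27.8 against 13.9 and 32.6 against 13.6 on Day 7, and 42.2 against 25.9 and 39.8 against 20.3 on Day 10. The log2 fold change over the days was 0.87 (SE 0.0735, adjusted p = 2.47e-12), with 1.02, 0.93 and 0.67 on Day 2, Day 7 and Day 10, each of them called, and 0.84 to 0.93 when each library was left out in turn. In the reverse split, *Scx* was higher in cells with *Tnmd* in all 6 libraries, for example at 229 against 137 CPM in Day 2 replicate A and 89.0 against 49.9 CPM in Day 10 replicate B, with a log2 fold change of 0.77 (SE 0.0794, adjusted p = 3.66e-20) and 0.71 to 0.80 with a library left out. Neither difference was shown to change between Day 2 and Day 10, with adjusted p = 0.134 and 0.687 from edgeR for the change. Both splits use the same thinned cells as the co-detection above, so their direction repeats that pairing and is not separate support for it.

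For *Mkx* the split gave less. *Scx* in cells with *Mkx* was at 153 against 138 CPM and 129 against 124 CPM on Day 2, 35.6 against 29.98 and 24.4 against 26.9 CPM on Day 7, and 84.0 against 53.8 and 76.1 against 50.9 CPM on Day 10. The log2 fold change was 0.29 over the days (SE 0.0916, adjusted p = 0.0183, edgeR), and of the single days only Day 10 passed, with 0.67 (adjusted p = 0.000546). The change from Day 2 to Day 10, 0.57, did not pass (adjusted p = 0.0818), and the call over the days was lost without Day 7 replicate A (0.22) or Day 10 replicate A (0.28). *Mkx* in cells with *Scx* differed by 0.20 over the days (adjusted p = 0.107, edgeR), and of the single days again only Day 10 passed, at 15.0 against 8.57 CPM and 13.4 against 8.67 CPM, with 0.57 (SE 0.170, adjusted p = 0.0102). Over the days *Tnmd* in cells with *Mkx* differed by 0.05 (adjusted p = 0.909), and *Mkx* in cells with *Tnmd* by -0.03 (adjusted p = 0.938). The standard errors of the last 2, 0.160 and 0.185, leave room for differences of moderate size in either direction. Cells of at least 12000 UMIs, thinned to that depth, gave more ties, with *Mkx* in cells with *Scx* at 0.49 (adjusted p = 1.16e-06, edgeR), *Tnmd* in cells with *Mkx* at 0.21 (adjusted p = 0.00349) and *Mkx* in cells with *Tnmd* at 0.21 (adjusted p = 0.0430), so the differences that involve *Mkx* moved with the thinning depth.

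Across all genes tested, 37.7% were called between cells with and without *Scx* (1165 higher and 4369 lower), 10.6% for *Mkx* (1106 higher and 518 lower) and 13.0% for *Tnmd* (686 higher and 1260 lower). The balance was not stable. DESeq2, which changes both the size factors and the test, called 1761 higher and 1309 lower for *Scx*, 269 higher and 561 lower for *Mkx*, and 590 higher and 356 lower for *Tnmd*. The median of all genes moved from -0.16 to -0.03 for *Scx* and from -0.12 to -0.02 for *Tnmd*, and list values are read against these medians.

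The genes most like each member were ranked by the lowest of their 6 library differences between cells with and without it, so their differences describe the choice and were not tested. For *Scx* the list was headed by *Meox1*, a homeobox gene of somites and connective tissue progenitors, at 25.2, 26.9, 26.8, 22.1, 62.6 and 54.1 CPM in cells with *Scx* of the 6 libraries (Day 2 A and B, Day 7 A and B, Day 10 A and B) and 10.9, 10.1, 7.49, 6.70, 27.4 and 26.1 CPM in cells without. It was followed by *Aspn*, *Crabp2*, *Tnmd*, *Cxcl14*, *Gas2*, *Rflnb*, *Fgf18*, *Igfbp3* and *Mex3b*, with log2 fold changes between 0.56 and 1.21. *Tnmd* was thus itself among the 10 genes most like *Scx* over 6 libraries, in the same cells as the co-detection above. *Fgf18* is an FGF ligand of skeletal tissues, *Crabp2* binds retinoic acid, and *Aspn* encodes a small leucine-rich proteoglycan of tendon, ligament and perichondrium.

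For *Tnmd* the list was *Crabp1*, *Aspn*, *Igf1*, *Itih5*, *Actg2*, *Penk*, *Pcp4*, *Ecscr*, *Fhl2* and *Kctd12*, with log2 fold changes of 0.94 to 1.85. *Igf1*, a growth factor that stimulates collagen synthesis in tendon, stood at 95.7 and 92.1 CPM in cells with *Tnmd* on Day 2, 579 and 655 CPM on Day 7 and 361 and 395 CPM on Day 10, against 43.9 and 44.1, 103 and 97.4, and 103 and 94.6 CPM in cells without. *Aspn* was the gene that the lists of *Tnmd* and *Scx* share, and in cells with *Tnmd* it ran from 111 CPM in Day 2 replicate A to 674 CPM in Day 10 replicate B.

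For *Mkx* the list was *Fosb*, *Gas2*, *Tmem158*, *Gas1*, *Socs3*, *Mecom*, *Vcan*, *Adgrl3*, *Hhip* and *Sema3d*, with log2 fold changes of 0.61 to 1.19. *Tmem158*, a membrane protein gene induced by Ras signalling, stood at 110.2 and 83.1 CPM in cells with *Mkx* on Day 2, 49.4 and 46.7 CPM on Day 7 and 24.0 and 30.2 CPM on Day 10, against 46.2 and 37.4, 20.2 and 19.9, and 13.4 and 13.3 CPM without. *Fosb* encodes an immediate-early factor, *Socs3* an inhibitor of cytokine signalling and *Hhip* an inhibitor of hedgehog signalling. *Mkx* shared *Gas2* with the list of *Scx* and 0 genes with that of *Tnmd*.

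Several of these genes parted the members. *Meox1* was also higher in cells with *Tnmd*, by 1.57 (adjusted p = 4.9e-33, edgeR), but differed by -0.31 in cells with *Mkx* (adjusted p = 0.377). *Sema3d*, a secreted guidance factor, was lower in cells with *Tnmd*, with a log2 fold change of -1.72 (adjusted p = 1.78e-46), and in cells with *Scx*, with -0.81 (adjusted p = 2.12e-14). *Actg2*, a smooth muscle actin, was lower in cells with *Mkx*, with a log2 fold change of -1.23 (adjusted p = 9.12e-19). *Fosb* was lower in cells with *Scx* and with *Tnmd*, with log2 fold changes of -0.47 and -0.72. Called higher in all 3 splits were *Aspn*, *Cxcl14*, *Gas2*, *Igfbp3*, *Mex3b*, *Gas1*, *Crabp1*, *Igf1*, *Penk* and *Kctd12*. For example, *Igfbp3* differed by 0.56, 0.79 and 1.10 with *Scx*, *Mkx* and *Tnmd*, and *Kctd12* by 0.39, 0.66 and 0.94. The split that chose a gene fixes its sign there.

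**Figure D4:**
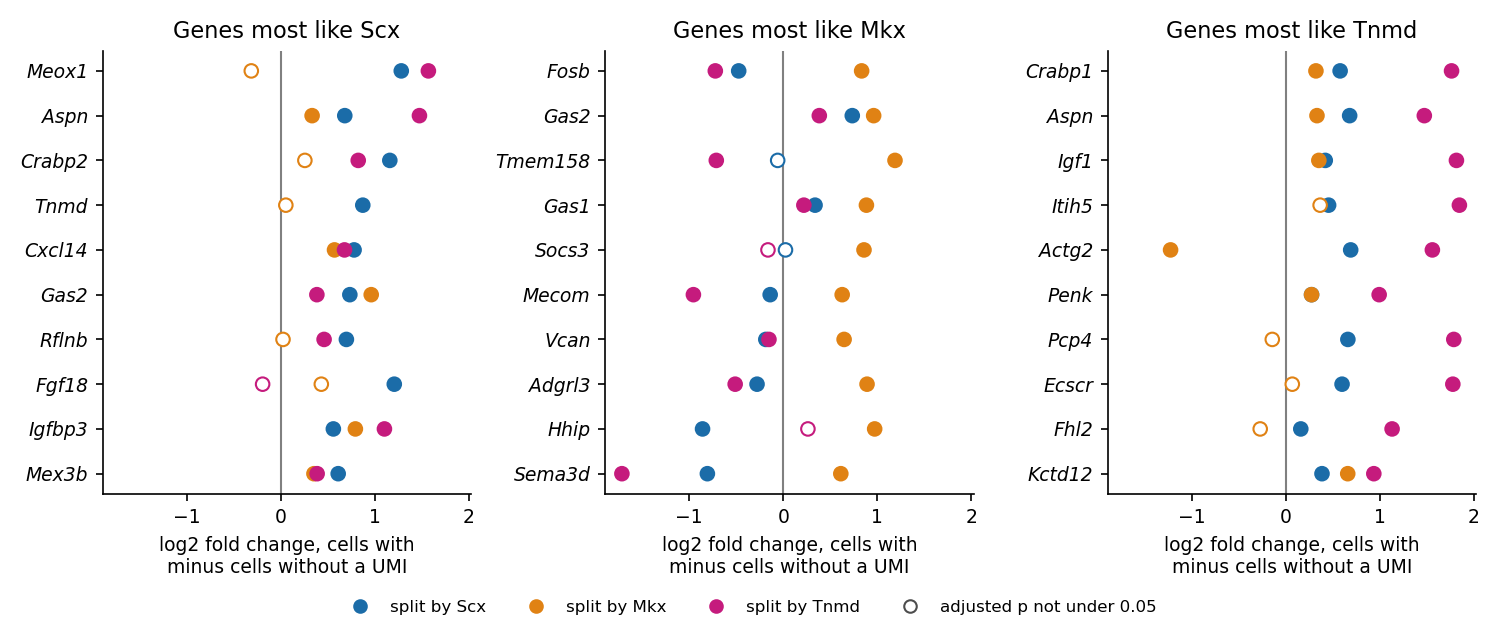
Log2 fold change, in cells split by each of the 3 members, of the 10 genes most like *Scx*, *Mkx* and *Tnmd* (a panel each), with open points where the adjusted p was not under 0.05. The genes most like *Tnmd* are mostly also higher in cells with *Scx*, while *Sema3d* and *Fosb*, from the list of *Mkx*, lie below 0 in both other splits.

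Matrix genes stood higher chiefly in cells with *Tnmd*. Of the 24 genes of the tendon matrix list, 19 were higher and 1 lower in cells with *Tnmd*, with a median of 0.39 against -0.12 over all genes tested. *Thbs4* differed by 2.09, *Fmod* by 0.99, *Postn* by 0.97 and *Col3a1* by 0.81, and the gene that was lower was *Comp*, cartilage oligomeric matrix protein (-1.03). In cells with *Scx*, 9 of 23 were higher and 10 lower, with a median of -0.01 against -0.16, and under DESeq2 12 were higher and 4 lower (median 0.12). There *Thbs4* was higher by 0.92 and *Lox*, the collagen cross-linking enzyme, by 0.43. In cells with *Mkx*, 7 of 24 were higher and 3 lower (median 0.08 against 0.03), led by *Col14a1*, a collagen of fibril surfaces, with 0.88, and *Col12a1* with 0.32. The perichondrium markers, which share genes with the matrix list, also summed to more with *Tnmd* alone than with none of the members in each library. In replicate A these sums were 1457 against 1032 CPM on Day 2, 6106 against 3403 CPM on Day 7 and 8277 against 6165 CPM on Day 10. On Day 10 this was not particular to *Tnmd*. The perichondrium markers then summed to 8241 and 6828 CPM with *Mkx* alone, against 8277 and 6242 CPM with *Tnmd* alone. The matrix list summed to 26155 and 23589 CPM with *Mkx* alone and 27576 and 23452 CPM with *Tnmd* alone. With none of the members it summed to 22782 and 19342 CPM.

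Transcription factors, partners and inhibitors showed the other arrangement. In cells with *Mkx* 8 of 18 were higher and 0 lower, with a median of 0.35 against 0.03 over all genes tested. Among the 8 were *Egr1* (0.53), *Nfatc4* (0.52), *Eya1* (0.71), *Tcf4* (0.46), *Tcf12* (0.40), *Id1* (0.30) and *Twist1* (0.22). DESeq2 called 6 higher and 0 lower. On Day 10 the cells with *Mkx* alone had medians of 4.99% and 4.45% mitochondrial and 22.1% and 19.9% ribosomal UMIs, against 3.92% and 3.49% and 24.9% and 24.5% in cells with none of the members. Their median depth was 16591 and 16032.5 UMIs against 25673 and 23838, and the part of these differences in the result was not tested. In cells with *Scx* 4 were higher and 7 lower (median -0.03 against -0.16 over all genes), and in cells with *Tnmd* 4 were higher and 5 lower (median -0.05 against -0.12). *Lmx1b*, a dorsal limb factor, was higher with *Tnmd* (0.86), as were *Eya2* (0.72) and *Egr2* (0.71). *Egr1* was called lower with both *Scx* (-0.29) and *Tnmd* (-0.20), where the medians of all genes were -0.16 and -0.12.

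Signalling genes were mixed. With *Scx* 4 of 25 were higher and 9 lower, with *Mkx* 8 were higher and 2 lower, and with *Tnmd* 5 were higher and 7 lower. The medians were -0.15, 0.22 and -0.11, against -0.16, 0.03 and -0.12 over all genes tested. Over all genes, 1165 of 14674 were higher and 4369 lower with *Scx*, 1106 of 15290 and 518 with *Mkx*, and 686 of 14988 and 1260 with *Tnmd*. The medians of the signalling genes thus lay near those of all genes for *Scx* and *Tnmd*. A larger share of them was called, in both directions, than of all genes, of which 37.7% were called for *Scx* and 13.0% for *Tnmd*. *Fgf18* was higher with *Scx* (1.21), as was *Etv4* (0.54), while *Gdf5* was lower with *Scx* (-1.55) and *Tnmd* (-1.46) and differed by 0.11 with *Mkx* (adjusted p = 0.908, edgeR). The receptor gene *Tgfbr2* was higher with *Mkx* (0.59) and *Tnmd* (0.42). *Tgfb2* was lower with *Tnmd* (-0.90) and *Tgfb3* higher (0.51). Of the relatives, 0 of 7 were higher in any split and *Cnmd* was lower in all 3, with -1.63 for *Scx*, -0.57 for *Mkx* and -1.80 for *Tnmd*.

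Markers of other cell types moved with these splits. The 12 chondrocyte markers were all lower in cells with *Scx* (median -1.54) and in cells with *Tnmd* (median -1.70), and 9 were lower and 2 higher in cells with *Mkx* (median -0.36). Markers of contractile stromal cells, such as *Acta2* and *Tagln*, were higher with *Scx* (7 of 7) and *Tnmd* (6 of 7) and lower with *Mkx* (6 of 7) over the days. For *Scx* this did not hold on Day 2, when *Acta2* (-0.22) and *Tagln* (-0.21) were lower in cells with it (adjusted p = 1.94e-05 and 1.67e-06, edgeR), against 1.31 and 1.33 on Day 7 and 0.33 and 0.33 on Day 10. The 7 markers summed to 3122 and 3690 CPM in cells with *Scx* alone and 4023 and 4294 CPM in cells with none on Day 2. Of the tenocyte markers, from which the 3 members had been left out, 8 of 12 were higher and 0 lower with *Tnmd* (median 0.67). With *Scx* 4 were higher and 3 lower of 11, and with *Mkx* 2 and 2 of 12. Several tenocyte markers are also in the tendon matrix list. In each library the 12 markers summed to more with *Scx* alone than with none, and to more still with *Tnmd* alone. In Day 2 replicate A these sums were 1333, 1017 and 2460 CPM for *Scx* alone, none and *Tnmd* alone. The 8 immune markers were lower in all splits, except *Csf1r* in cells with *Tnmd*, which differed by 0.06. By cell-cycle score, fewer cells with *Tnmd* alone than with none of the members were in G1. The shares were 33.3% and 30.4% against 47.2% and 39.5% on Day 2, 55.5% and 52.8% against 67.9% and 67.7% on Day 7, and 58.3% and 58.7% against 71.0% and 70.1% on Day 10. The part of the cell cycle in the split of *Tnmd* was not tested.

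The cells with one member alone were then compared with each other. *Scx* alone and *Tnmd* alone had the fewest genes called of the 3 pairs, 4.98% of 9409 (123 higher and 346 lower in *Scx* alone). In cells thinned to 12000 UMIs 692 were higher and 732 lower. The number called also depends on the cells behind each sum, which were 578 to 2315 per library for *Scx* alone, 184 to 274 for *Mkx* alone and 108 to 403 for *Tnmd* alone. Higher in cells with *Scx* alone were *Ccn5* (1.21), *Pmepa1* (0.86), *Angptl2* (0.83), *Bcl11a* (0.80) and *Mecom* (0.79). Higher in cells with *Tnmd* alone were *Igf1* (-1.67), *Itih5* (-1.66), *Lpl* (-1.59), *Crabp1* (-1.23) and *Adamtsl1* (-1.22). Of the tendon matrix genes 0 of 23 were higher and 16 lower in *Scx* alone, with a median of -0.44 against -0.03 over all genes, among them *Thbs4* (-1.16), *Tnc* (-0.82) and *Fmod* (-0.78). The number of genes called rested on single libraries, at 204 without Day 7 replicate A, 269 without Day 7 replicate B, 280 without Day 10 replicate A and 289 without Day 10 replicate B.

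*Scx* alone and *Mkx* alone had the most genes called, 31.7% (519 higher and 2464 lower in *Scx* alone), with a median of -0.19 over all genes. DESeq2 and other size factors were not run for cells with a single member. The balance of higher and lower genes was therefore not checked against them here. Cells with *Scx* alone had more of the contractile genes *Actg2* (2.02), *Acta2* (1.31) and *Tagln* (1.29), of *Prg4* (1.33), the lubricin of joint surfaces, and of *Ass1* (1.499). The difference in *Prg4* missed the threshold without Day 7 replicate A (0.96, adjusted p = 0.0567, edgeR). Cells with *Mkx* alone had more of *Hhip* (-1.88) and *Ptch1* (-1.53), which are both targets and inhibitors of hedgehog signalling, and of *Angptl1* (-1.53), *Acan* (-1.48) and *mt-Nd6* (-1.48). The chondrocyte markers were lower in *Scx* alone (0 higher and 12 lower, median -1.23) and 7 of 17 transcription factors and partners were lower with 0 higher. Read against the kinds' sums, the 12 chondrocyte markers together had a median over libraries of 3379 CPM in cells with *Scx* alone, 9589 with *Mkx* alone, 4391 with *Tnmd* alone and 14614 with none. The order held on Day 7 and Day 10 only, since on Day 2 the cells with *Mkx* alone, at 3810 and 3004 CPM, lay above those with none, at 2983 and 2868 CPM.

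*Mkx* alone and *Tnmd* alone differed in 17.2% of genes (1216 higher and 398 lower in *Mkx* alone), with a median of 0.15 over all genes. *Sema3d* (2.29), *Tmem158* (2.20), the chondrogenic factor gene *Sox5* (1.92), *Omd* (1.76) and *Pcolce2* (1.70) were higher with *Mkx* alone. *Actg2* (-2.88), *Pcp4* (-1.96), *Igf1* (-1.74), *Itih5* (-1.56) and *Tagln* (-1.55) were higher with *Tnmd* alone. All 12 chondrocyte markers were higher with *Mkx* alone (median 1.05), as were 4 of 6 joint interzone markers (median 1.49) over the days, 7 of 17 transcription factors and partners, and 8 of 22 signalling genes, among them *Gdf5* (1.96), *Tgfb2* (1.14) and *Nog* (1.12). The 6 joint interzone markers summed to more with *Mkx* alone on Day 2 (1009 and 1018 CPM against 404 and 507 CPM) and on Day 7 (325 and 342 CPM against 295 and 323 CPM), and to less on Day 10 (183 and 241 CPM against 250 and 298 CPM). Of the matrix genes 1 was higher and 8 lower. Without Day 10 replicate B 1067 genes were called.

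Each library was also clustered by itself, with the 3 members left out of the features. The 80 clusters, 11 to 17 per library, were named from marker lists by a rule set after their leading genes had been seen, and 34 stayed unnamed. On Day 2, *Scx* peaked in an unnamed cluster led by *Pcp4*, *Aspn* and *Shox2* in replicate A (254 CPM, with 32.4% of all *Scx* UMIs) and by *Aspn*, *Meis2* and *Pcp4* in replicate B (227 CPM, 36.9%). On Day 7 it peaked in the contractile stromal-like cluster of both replicates (87.6 and 84.8 CPM), which took 56.3% and 56.2% of the *Scx* UMIs with 24.6% and 24.2% of all UMIs and 11.6% and 11.7% of the cells. On Day 10 it peaked in an unnamed cluster led by *Prg4* in both, at 121 and 104 CPM.

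*Tnmd* peaked with *Scx* on Day 2, in the same cluster of replicate A (39.6 CPM, 54.1% of its UMIs). In replicate B that cluster was at 32.1 CPM and the highest level, 127 CPM, was in 79 cells with a median of 2886 UMIs led by *Krt8*. On Day 7 the replicates parted at the resolution used. In replicate B a tenocyte-like cluster of 633 cells, led by *Igf1*, *Aspn* and *Crabp1* and with *Col14a1*, *Lum*, *Ecrg4*, *Ptn* and *Aspn* among its markers, stood at 106 CPM of *Tnmd*, 60.0 CPM of *Scx* and 16.0 CPM of *Mkx*, and its joint interzone-like cluster at 2.34 CPM of *Tnmd*. In replicate A no cluster took that name, and the joint interzone-like cluster, which has *Igf1* among its leading genes, held the highest *Tnmd* (45.4 CPM). At 2 times the resolution the replicates came together, with tenocyte-like clusters of 544 cells at 112 CPM in replicate A and 738 cells at 93.4 CPM in replicate B, which held 38.0% and 37.7% of the *Tnmd* UMIs. On Day 10 it was highest in 235 cells led by *Gpha2* and *Igf1* (103 CPM) and a cluster led by *Penk* and *Egfl6* (78.6 CPM) in replicate A, and in clusters led by *Ibsp* and *Ifitm5* (41.9 CPM) and by *Prg4* (40.1 CPM) in replicate B. At the finer resolution replicate B had a tenocyte-like cluster, of 1060 cells, with the highest *Tnmd* (79.2 CPM, 42.4% of its UMIs) and the highest *Scx* (118 CPM). In replicate A the tenocyte-like cluster at that resolution, of 818 cells, was second for both, at 77.8 CPM of *Tnmd* and 122 CPM of *Scx*. There the highest *Tnmd* (103 CPM) was in an unnamed cluster of 228 cells and the highest *Scx* (144 CPM) in another unnamed cluster, of 639 cells.

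The highest cluster of *Mkx* was not that of *Scx* on Day 2 and Day 7. On these days it was not that of *Tnmd* either, except in Day 7 replicate A, where both were highest in the joint interzone-like cluster. In Day 2 replicate B the highest cluster of *Mkx* was second for *Scx*, at 155 CPM. Over clusters, the Spearman correlation of *Scx* and *Mkx* was 0.55 and 0.42 on Day 2, 0.27 and 0.45 on Day 7, and 0.49 and -0.32 on Day 10. That of *Scx* and *Tnmd* was 0.25 and 0.67, 0.57 and 0.42, and 0.65 and 0.58. The joint interzone-like clusters were at 32.9 and 33.2 CPM of *Mkx* on Day 2 and 19.8 and 24.3 CPM on Day 7, and held 16.7% to 25.8% of its UMIs. The interdigital mesenchyme-like cluster of Day 2 replicate B was at 37.4 CPM. On Day 10 no such cluster stood out, the highest being 20.2 CPM in the 235 cells led by *Gpha2* and 14.7 CPM in a shallow cluster of replicate B. The highest cluster exceeded the median cluster 2.81 times for *Mkx*, 3.98 times for *Scx* and 5.65 times for *Tnmd* as a median over libraries, though the figure for *Tnmd* ranged from 3.82 to 17.8 and its median was 10.9 at 2 times the resolution.

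The kinds of cells followed their clusters. Of the cells with *Tnmd* alone in Day 7 replicate B, 34.4% lay in the tenocyte-like cluster, 5.13 times its share of all thinned cells, and of the 38 cells with both *Scx* and *Tnmd* 52.6% did, 7.85 times its share. Cells with *Scx* alone lay in contractile stromal-like clusters in 50.6% and 49.5% of cases on Day 7, 2.86 and 3.15 times the share of these clusters. Cells with *Mkx* alone lay in joint interzone-like clusters in 34.1% and 22.3% of cases on Day 2 and 36.6% and 34.3% on Day 7, at 2.14 to 2.83 times the share of these clusters.

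**Figure D5:**
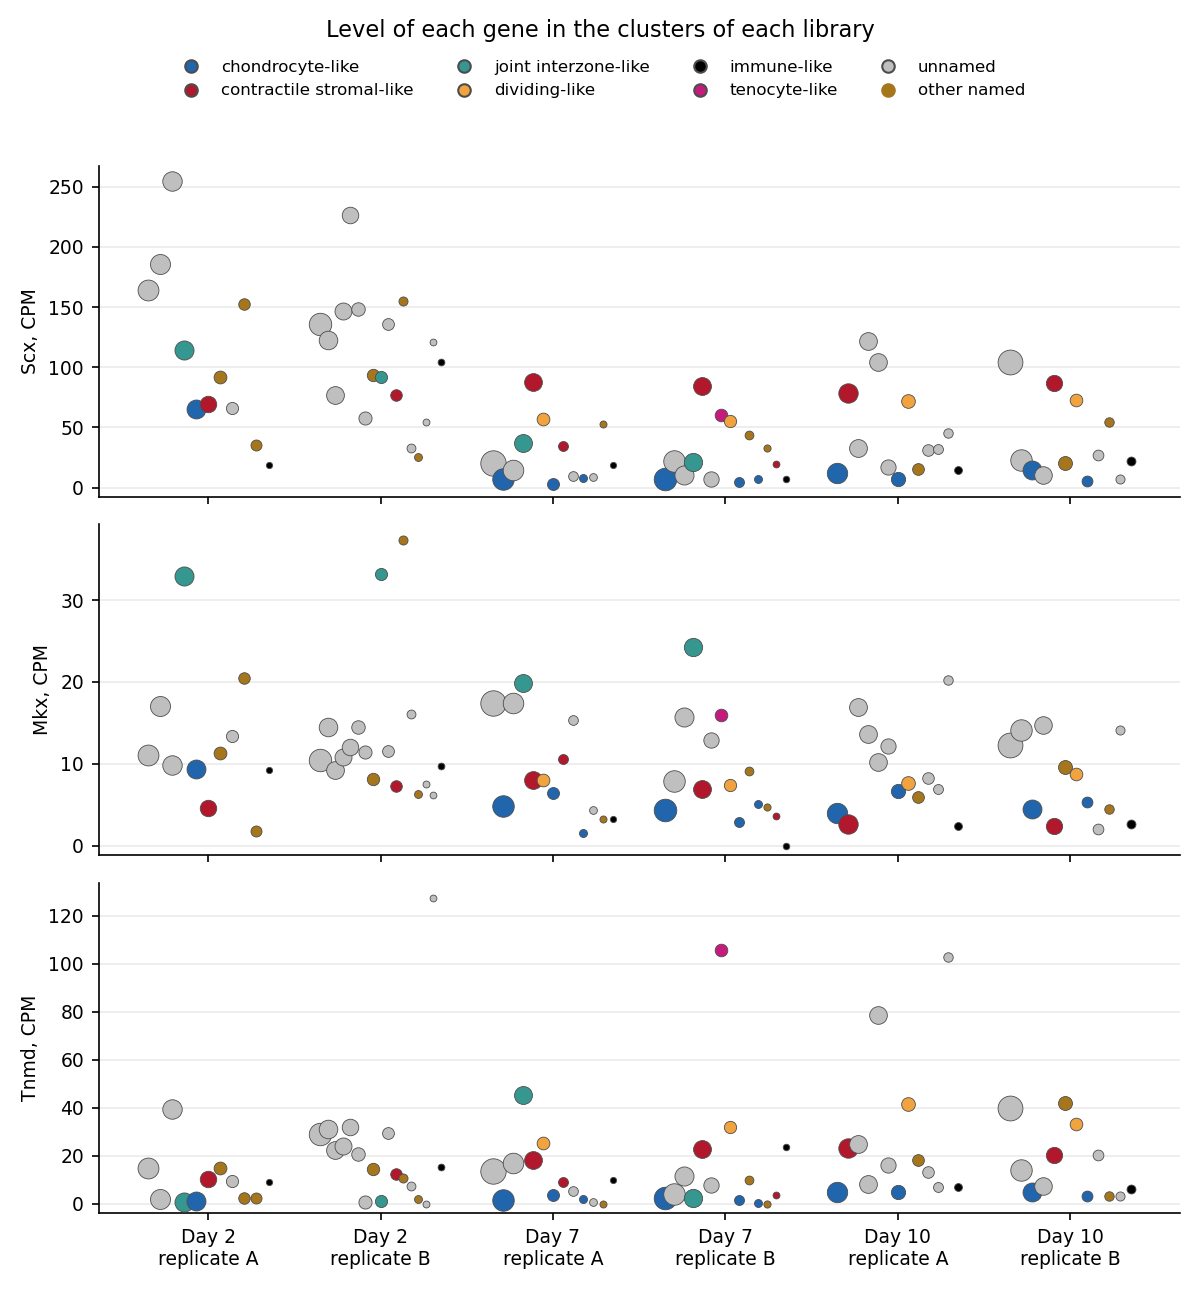
CPM of *Scx*, *Mkx* and *Tnmd* in each cluster of each library, with the area of a point following the share of the library's cells and its colour the class of the cluster. On Day 7 *Scx* is highest in contractile stromal-like clusters, *Mkx* in joint interzone-like ones, and *Tnmd* in the tenocyte-like cluster of replicate B.

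Cell types that should lack the members give a background level, and whether free RNA or doublets account for it was not tested. Immune-like cells, at 20 to 185 per library, had *Scx* at 6.99 to 21.7 CPM in 5 libraries, with medians of 17738 to 30436 UMIs, and at 105 CPM in Day 2 replicate B, where the 78 cells had a median of 4576 UMIs. Their thinned share with a UMI of *Scx* was 0% to 5% in the 5 libraries and 36.8% in Day 2 replicate B, above the 26.9% of all cells there. *Scx* in shallow cells of Day 2 replicate B therefore cannot be told from its level in the immune-like cells. The level differed between cell types there, since a myocyte-like cluster of this library was at 25.3 CPM of *Scx*. At 2 times the resolution an erythrocyte-like cluster was at 24.9 CPM. *Tnmd* was at 6.04 to 23.6 CPM in immune-like cells, so on Day 2 and Day 7 only its highest clusters stood clear of them. In a myocyte-like cluster of each Day 7 replicate it was at 0 CPM. *Mkx* was at 0 to 9.69 CPM in immune-like cells. The upper end lay above its unscaled mean over whole cultures on Day 7 (8.72 CPM) and Day 10 (7.46 CPM). In immune-like clusters of Day 7 replicate B and Day 10 replicate A *Mkx* was at 0 and 2.41 CPM.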

How the data were processed

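The data are 6 single-cell libraries of DID cultures. Per the labels and the submitters' processing notes, the authors made the libraries with the 10x Genomics 3' GEX kit, aligned the reads to GRCm38 (mm10) and counted them with Cell Ranger 6.1.2, which runs STAR. The deposited matrices hold UMI counts per gene and barcode with no normalization, all whole numbers, and 0 columns belong to other samples. Counting used 1 table per library, and intronic or exonic settings and the strand setting were not given in the sources used here.

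Cells were kept by the study's limits per library (800 or 1000 UMIs at the least, 200 to 7500 genes, 25% to 40% mitochondrial and 35% or 40% ribosomal UMIs at most). No doublet caller was run. UMIs were summed per library and tested with edgeR 4.0.16 in R 4.3.3 (filterByExpr, TMM, quasi-likelihood F test, Benjamini-Hochberg over all genes tested, adjusted p under 0.05), all 6 libraries sharing 1 estimate of the spread (3 residual degrees of freedom). For cells with and without a member, cells were thinned to 3000 UMIs, summed per library (sums of at least 10 cells) and compared with library as a covariate, with TMM factors from genes of at least 100 CPM. Shares have exact (Clopper-Pearson) 95% binomial intervals, which cover counting error only. The tests were tried on simulated data. Each library was clustered with Seurat 5.3.0 (sctransform 0.4.2, S minus G2M score regressed, 35 dimensions, resolution 0.5 or 0.7). A cluster took the name of the marker list with the highest mean log2 ratio among lists with 3 or more markers at 1 or above. It stayed unnamed where no list qualified or another list held more of its 10 leading genes. It also stayed unnamed where another list had more than 2 times as many such markers, or where the chosen list had none among the leading genes.

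The genes named are the members, their lists of factors and partners, relatives, signals and tendon matrix, the marker lists, the 10 genes most like each member, and the 5 genes with the largest difference per direction between cells with a single member, at 50 CPM or more. The leading genes of clusters and the examples taken from the lists were picked after their values were seen. The members and lists were chosen with earlier results of these data known. Alternatives were other size factors, DESeq2 1.42.0, other filters and thinning depths, the replicate letter as a block, and each library left out. The depth of 12000 UMIs, the cells without the deepest 10%, and leaving out libraries for cells with a single member were added after seeing the data. Gene positions come from GENCODE on GRCm38. Staining and images were not analysed here, and 1 gene counted within the lists is not named here.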

Additional observations from a re-analysis of the deposited data

Results flagged for a closer look

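The difference between cells with and without a member changed between Day 2 and Day 10, by the interaction term of the edgeR test, for 8 entries of the likeness lists. Of all genes tested, 12% changed in this way for *Scx*, 1.11% for *Mkx* and 2.09% for *Tnmd*, and the 8 entries were chosen from the same cells. Each list has 10 genes, and *Aspn* is among the 8 entries for both *Scx* and *Tnmd*. In cells with *Scx*, *Aspn* moved by -0.55, from a log2 fold change of 0.99 on Day 2 to 0.44 on Day 10, while *Crabp2* moved by 0.48 (from 0.66 to 1.14) and *Gas2* by 0.38 (from 0.59 to 0.96). In cells with *Mkx*, *Vcan*, which encodes versican, moved by 0.39 (from 0.44 to 0.83). In cells with *Tnmd*, *Aspn* moved by -0.76 (from 1.80 to 1.04), *Actg2* by -0.88 (from 1.98 to 1.11) and *Penk* by -0.55 (from 1.32 to 0.77), while *Igf1* moved by 0.81 (from 1.04 to 1.85). All 8 entries were higher in the cells with the member on both days, which the choice of genes for these lists fixes.

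Barcodes outside the limits on cells also held the members, with 30895 UMIs of *Scx*, 2616 of *Mkx* and 7532 of *Tnmd* over the 6 libraries. The comparisons above do not use these UMIs, except where all deposited barcodes were summed.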

How the results depend on the processing

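Between days, the members kept their direction under all alternatives run. *Mkx* no longer passed from Day 2 to Day 7 with cells thinned to 3000 UMIs (-0.078), nor from Day 7 to Day 10 at 12000 UMIs (-0.072). *Tnmd* from Day 2 to Day 7 no longer passed with DESeq2's size factors (0.34, adjusted p = 0.0509, edgeR), with DESeq2 itself (0.34, adjusted p = 0.157), with all barcodes (0.28, adjusted p = 0.126) or with cells thinned to 3000 UMIs (0.20, adjusted p = 0.482, edgeR). Genes called from Day 7 to Day 10 numbered 5867 with cells thinned to 3000 UMIs.

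Thinning depth moved the splits most, and the cause of the changes was not tested. Genes called in cells with *Scx* numbered 1413 at 1000 UMIs and 12159 unthinned, and 3070 with DESeq2. For *Mkx* they numbered 121 at 1000 UMIs, 3751 at 6000, 5401 at 12000, 5482 unthinned and 830 with DESeq2, and for *Tnmd* 274, 3712, 5344, 9183 and 946. *Scx* in cells with *Mkx* turned to -0.30 at 1000 UMIs and was 0.20 with DESeq2 (adjusted p = 0.294). *Mkx* in cells with *Scx* passed at 6000 UMIs (0.25), 12000 (0.49) and unthinned (0.24), *Tnmd* in cells with *Mkx* at 12000 (0.21) and unthinned (0.36), and *Mkx* in cells with *Tnmd* at 12000 (0.21). *Scx* in cells with *Tnmd* was 0.59 at 1000 UMIs and did not pass (adjusted p = 0.0953, edgeR). Between cells with a single member, genes called numbered 40 at 1000 UMIs, 1424 at 12000 and 2940 unthinned for *Scx* against *Tnmd*, 493 and 7124 (1000 and unthinned) for *Scx* against *Mkx*, and 208, 2948 and 3309 for *Mkx* against *Tnmd*. The ratio of the share with *Scx* on Day 10 to that on Day 2 was 0.426 at 1000 UMIs, 0.540 at 6000, 0.653 at 12000 and 0.754 unthinned, and for *Mkx* 0.786 at 1000, 0.610 at 6000 and 0.960 unthinned. The median odds ratio of *Scx* and *Mkx* was 0.798 at 1000 UMIs, 1.48 at 12000 and 2.68 unthinned, that of *Scx* and *Tnmd* 3.12 unthinned, and that of *Mkx* and *Tnmd* 1.38 at 12000 and 1.69 unthinned. At 2 times the resolution the highest cluster exceeded the median cluster 3.51 times for *Mkx* and 10.9 times for *Tnmd*.

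With each library left out in turn, *Mkx* from Day 7 to Day 10 ranged from -0.28 to -0.21 and was lost without Day 7 replicate A, Day 7 replicate B or Day 10 replicate A. *Tnmd* from Day 2 to Day 7 ranged from 0.15 to 0.61 and was lost without Day 2 replicate A or Day 7 replicate B. *Scx* in cells with *Mkx* ranged from 0.22 to 0.37 and was lost without Day 7 replicate A or Day 10 replicate A. Genes called ranged from 1073 (without Day 10 replicate A) to 1395 in cells with *Mkx*, from 204 to 686 (without Day 2 replicate A) for *Scx* alone against *Tnmd* alone, with the low values without any Day 7 or Day 10 library, and from 1067 (without Day 10 replicate B) to 1370 for *Mkx* alone against *Tnmd* alone. *Prg4* between *Scx* alone and *Mkx* alone was lost without Day 7 replicate A (0.96).

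The replicate letters did not pair the libraries, with correlations of -0.02, -0.06 and -0.01 between same-lettered deviations. With the replicate block, *Scx* gave -1.55, 0.71 and -0.84 for Day 2 to 7, 7 to 10 and 2 to 10, *Mkx* -0.27, -0.25 and -0.52, and *Tnmd* 0.37, 0.64 and 1.01, with 13135, 9607 and 14524 genes called, and no call for a member changed. Without the library block in the splits, 4428, 882 and 1454 genes were called for *Scx*, *Mkx* and *Tnmd*, and *Scx* in cells with *Mkx* (0.29) no longer passed (adjusted p = 0.0622, edgeR). The genes of the likeness lists and those named for the largest differences between cells with a single member were also followed through alternatives. Of their differences, 17 lost their call under a setting that kept all libraries, each at 1000 UMIs, and 0 changed sign. These genes were chosen by their differences in the same cells, which favours a stable sign. The other named genes of the factor, signal, matrix, relative and marker lists were not followed singly in this way.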
